A study of Homo sapiens with 12 samples.

Results

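The genes described here make serine from a glycolytic intermediate and pass its carbon into the folate pool. They are the 3 enzymes of serine synthesis (PHGDH, PSAT1 and PSPH), the serine hydroxymethyltransferases SHMT1 and SHMT2, and the folate enzymes MTHFD1, MTHFD2, MTHFD1L and ALDH1L2. These 9 genes, of 57820 gene IDs in the files, were taken by name as a pathway, and 8 of them held enough reads to be among the 16999 genes tested. PSAT1 was in addition picked out on its measured level, which was low in hypoxia in these same libraries, so it was chosen by a readout. That choice names no siRNA arm. Its differences are therefore descriptions in both arms, and no p is given for them.

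AsPC-1 is a cell line derived from a human pancreatic cancer, and its poly(A) RNA was sequenced in 12 libraries. Cells received either a scrambled siRNA (siControl) or an siRNA to ARNT (siARNT) with a lipid reagent, and 48 h after transfection RNA was taken. On the day after transfection each well was split between 21% O2 (normoxia) and 1% O2 for 24 h (hypoxia), which gave 4 groups of 3 libraries lettered A, B and C, each oxygen level with each siRNA. All groups are thus transfected cells of 1 line, and nothing in the labels says that the letters mark cultures begun apart, so p-values measure the spread between these libraries, which may be partly technical. The labels also do not say which normoxia and hypoxia libraries came from 1 well. The tests below use no pairing, and a block by well, taken from the letters, is given as an alternative. ARNT is the partner that the HIF alpha subunits need to bind DNA, and the comparisons ask which hypoxia changes depend on it.

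In serine synthesis, PHGDH oxidises 3-phosphoglycerate, PSAT1 moves an amino group from glutamate onto the product, and PSPH removes the phosphate to leave serine. SHMT1 in the cytosol and SHMT2 in mitochondria then split serine into glycine and a carbon unit carried by tetrahydrofolate. In mitochondria MTHFD2 oxidises that unit and MTHFD1L then releases it as formate, while ALDH1L2 oxidises it to carbon dioxide. In the cytosol MTHFD1 takes up the formate, for purines, thymidylate and methionine. Several of these genes are known targets of the amino acid stress factor ATF4.

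Gene counts totalled 38.53 to 84.34 M per library. ARNT itself lay between 60.7 and 72.2 counts per M (CPM) in the 6 siControl libraries and between 12.8 and 16.0 CPM in the 6 siARNT libraries. All 8 epithelial markers checked averaged at least 1 CPM, from 1.75 CPM for KRT7 to 2180 CPM for CEACAM6. None of 5 leukocyte markers or of 2 endothelial markers reached that level, and CD3E was at 0 in every library. Of 6 fibroblast markers LUM averaged 449 CPM, while COL1A1 averaged 0.0757 CPM. The library normoxia siARNT B stood apart. Its levels rose with gene GC content by 0.431 on the log2 scale per 10 percentage points of GC, against -0.208 to 0.243 in the other libraries, and this is given beside the results it touches.

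The first enzyme of serine synthesis was all but absent. PHGDH (ENSG00000092621.7; chromosome 1, 119648411 to 119744226, plus strand, GENCODE 29 on GRCh38) held 6 reads among 666.4 M counts in the 12 libraries. It was at 0 reads in 8 libraries, had 1 read in normoxia siARNT B, and had 2, 1 and 2 reads in hypoxia siARNT A, B and C. No library exceeded the limit of 3 counts that a count of 0 allows, which is 0.036 CPM in the deepest library and 0.078 CPM in the shallowest. No fold change is given for it, and at this depth a difference between groups was not detectable.

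Per kilobase of exon, MTHFD2 was the most abundant member in normoxia siControl, at 32.1 ± 1.87 CPM per kb (SD, n = 3). MTHFD1 followed at 16.7 ± 0.293 CPM per kb and PSAT1 at 14.6 ± 0.75 CPM per kb, with no overlap between these 3. MTHFD1L (10.9 ± 0.406 CPM per kb), SHMT2 (9.7 ± 0.913 CPM per kb) and PSPH (9.26 ± 0.153 CPM per kb) came next, and neighbours in this order overlapped. The cytosolic SHMT1 stood at 1.93 ± 0.119 CPM per kb, below the mitochondrial SHMT2. ALDH1L2 was near the limit of detection at 0.0643 ± 0.0101 CPM per kb. Measured on the longest transcript in place of all exons, MTHFD1L (15.2 CPM per kb) was listed above PSAT1 (14.6 CPM per kb), and their libraries overlapped. In hypoxia siControl the order changed for PSAT1, which at 5.71 ± 0.281 CPM per kb lay below MTHFD1L, SHMT2 and PSPH with no overlap with PSPH, its neighbour in that order.

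**Figure D1:**
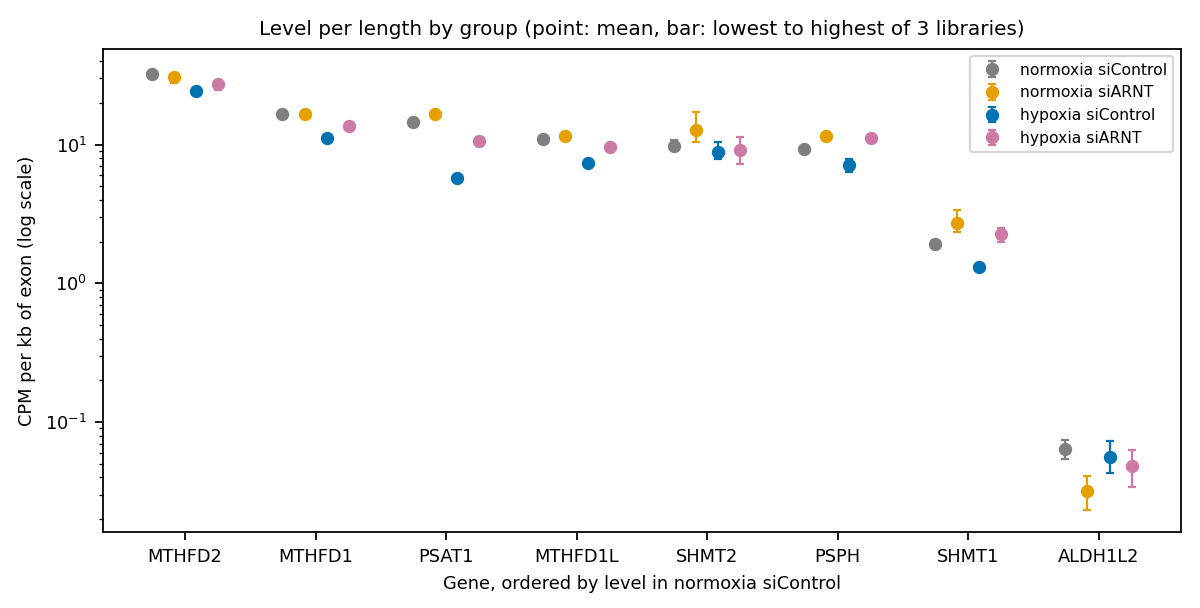
Level per kilobase of exon, in CPM per kb on a log axis, of 8 genes in the 4 groups; points are means and bars run from the lowest to the highest of 3 libraries, and PHGDH is left out because most of its libraries are at 0. PSAT1 lies at 14.6 CPM per kb in normoxia siControl and at 5.71 CPM per kb in hypoxia siControl, while MTHFD2 is highest in all 4 groups.

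The sequences before the start sites of PSAT1, MTHFD1 and MTHFD1L are shown because these are the members that were low in hypoxia in both siRNA arms. They come from RefSeq promoters on GRCh38.p14, which held 6 of the 9 genes (PHGDH, PSAT1, SHMT1, MTHFD1, MTHFD2 and MTHFD1L). Capitals mark matches on either strand to CACGTG (the E-box that MYC family proteins bind), to ACGTG or GCGTG (cores of the HIF binding element, the first of which lies within every CACGTG), or to TGATGNAA (an element that ATF4 binds with C/EBP proteins). For PSAT1 all 250 bases before the start are printed. For MTHFD1 and MTHFD1L only stretches of 30 bases around the CACGTG and TGATGNAA matches are printed, since their windows run into exons annotated by GENCODE. The printed stretches lie in such exons too. This holds for all 30 bases of MTHFD1, for 17 bases of the MTHFD1L stretch with CACGTG and for all 30 of that with TGATGCAA.
PSAT1, chr9:78296875-78297124, plus strand: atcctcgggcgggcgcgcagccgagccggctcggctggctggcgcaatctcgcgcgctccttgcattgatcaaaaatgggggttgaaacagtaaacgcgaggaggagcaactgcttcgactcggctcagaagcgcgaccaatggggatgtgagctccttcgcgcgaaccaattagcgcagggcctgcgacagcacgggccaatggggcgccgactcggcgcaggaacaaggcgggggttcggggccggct
MTHFD1, chr14:64388323-64388352, plus strand: tggccagtccctaagCACGTGggttgggtt
MTHFD1L, chr6:150866320-150866349, plus strand: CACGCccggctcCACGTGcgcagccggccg
MTHFD1L, chr6:150866346-150866375, plus strand: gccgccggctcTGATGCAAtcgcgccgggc
The PSAT1 window held none of these letters, which says only that they are not in these 250 bases. MTHFD1 held CACGTG from -15 to -10 counted from the start site. MTHFD1L, at the first of its 4 starts in the table, held CACGTG from -154 to -149 and TGATGCAA from -129 to -122, with matches to GCGTG from -166 to -162 and, outside the printed stretches, from -205 to -201. Among 35116 windows of the same length, 6.34% held CACGTG, against 2 of the 6 member windows. ACGTG was found in 18.5% of all windows and in 3 of 6 members, GCGTG in 32.2% and in 2 of 6, and TGATGNAA in 3.14% and in 1 of 6.

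PSAT1 (ENSG00000135069.9; chromosome 9, 78297143 to 78330093, plus strand) showed the widest range of the serine synthesis genes. It stood at 33.7, 30.5 and 31.6 CPM in normoxia siControl A, B and C and at 13.2, 12.2 and 12.0 CPM in hypoxia siControl. With siARNT it stood at 38, 34.4 and 37.3 CPM in normoxia and at 24.4, 24.1 and 21.3 CPM in hypoxia. The 4 groups therefore lay in the order hypoxia siControl, hypoxia siARNT, normoxia siControl, normoxia siARNT, with no overlap between neighbours. In a bulk sample, fewer cells that make a transcript and less of it per cell cannot be told apart.

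Described without a test, the PSAT1 log2 difference between hypoxia and normoxia in siControl was -1.36 (SE 0.078), a level of 0.391 times that in normoxia. In siARNT cells, also described without a test, the difference between hypoxia and normoxia was -0.65 (log2, SE 0.077), a level of 0.637 times that in normoxia. That SE takes its spread from all 12 libraries. With only the 6 siARNT libraries the difference was -0.64, and over the 21 alternative analyses it ran from -0.69 to -0.59. The difference of siARNT against siControl was 0.90 (log2, SE 0.078) in hypoxia and 0.19 (log2, SE 0.076) in normoxia, and the hypoxia difference in siARNT minus that in siControl was 0.70 (log2, SE 0.109), all of them described only.

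**Figure D2:**
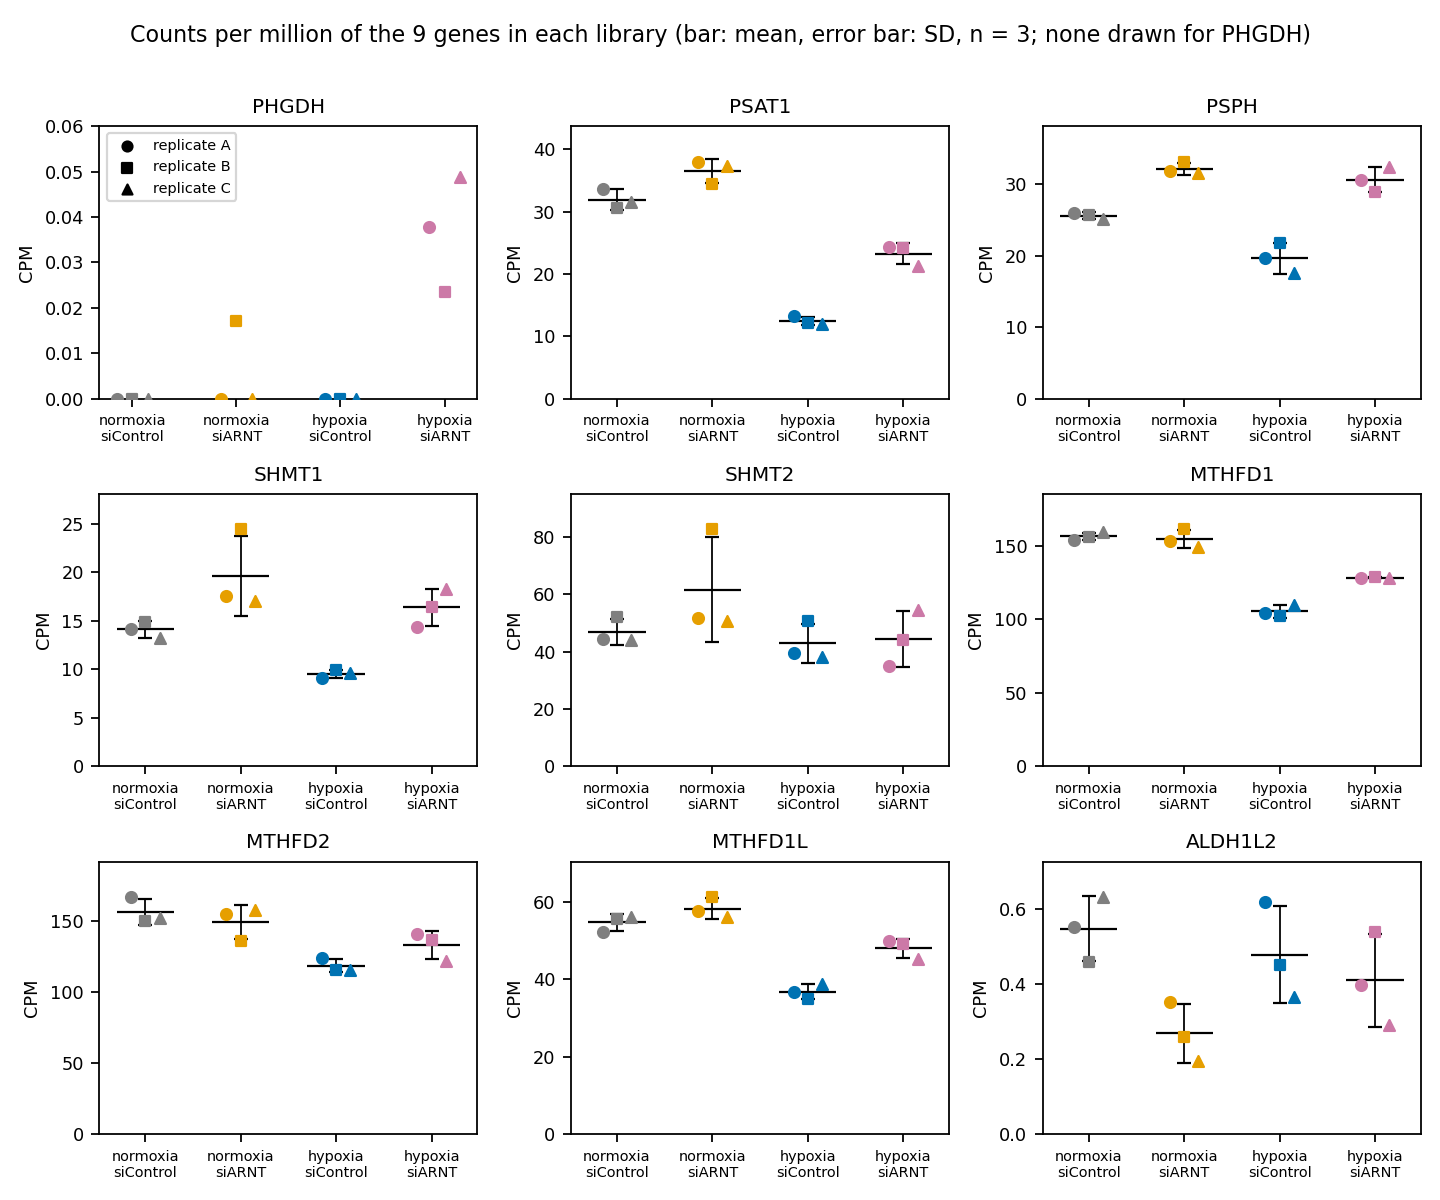
CPM of each of the 9 genes by group, with 1 symbol per library (circle A, square B, triangle C), the mean as a bar and the SD as an error bar (n = 3). PSAT1 in hypoxia siControl lies between 12.0 and 13.2 CPM, below all other libraries, and PHGDH never exceeds 2 reads.

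The third enzyme, PSPH (ENSG00000146733.9; chromosome 7, 56011051 to 56051604, minus strand), was lowest in hypoxia siControl. It stood at 26.0, 25.6 and 25.1 CPM in normoxia siControl A, B and C and at 19.6, 21.8 and 17.5 CPM in hypoxia siControl. In siARNT cells it was at 31.8, 33.1 and 31.5 CPM in normoxia and at 30.6, 28.8 and 32.3 CPM in hypoxia. Both siARNT groups lay above both siControl groups, and overlapped each other.

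PSPH fell by 23.2% in hypoxia in siControl (log2 fold change -0.38, SE 0.081, adjusted p = 0.00471 by edgeR's quasi-likelihood test). In siARNT cells its log2 fold change in hypoxia was -0.07 (SE 0.08, adjusted p = 0.629 by edgeR). It rose with siARNT in hypoxia by 55.4% (log2 fold change 0.64, SE 0.081, edgeR adjusted p = 0.000122) and in normoxia by 25.6% (0.33, SE 0.08, edgeR adjusted p = 0.0158). The normoxia call was lost without normoxia siControl A or C (adjusted p 0.0569 and 0.0738). The difference between the hypoxia changes of the 2 siRNA arms, 0.31 (log2, SE 0.114), did not pass the test (edgeR adjusted p = 0.153).

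Of the serine hydroxymethyltransferases, the cytosolic SHMT1 (ENSG00000176974.13; chromosome 17, 18327860 to 18363563, minus strand) changed, and the mitochondrial SHMT2 was not called in the 5 comparisons without a correction for GC content. SHMT1 stood at 14.2, 14.9 and 13.2 CPM in normoxia siControl A, B and C and at 9.07, 9.92 and 9.57 CPM in hypoxia siControl. With siARNT it was at 17.5, 24.4 and 17.0 CPM in normoxia and at 14.4, 16.4 and 18.3 CPM in hypoxia. The hypoxia siControl libraries lay below all the others.

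SHMT1 fell by 32.4% in hypoxia in siControl (log2 fold change -0.57, SE 0.138, edgeR adjusted p = 0.0104) and rose by 71.9% with siARNT in hypoxia (0.78, SE 0.139, edgeR adjusted p = 0.00128). In siARNT cells the hypoxia change was -0.27 (log2, SE 0.136, edgeR adjusted p = 0.293). In normoxia SHMT1 rose with siARNT by 39.6% (0.48, SE 0.136, edgeR adjusted p = 0.0299). That call was lost without normoxia siARNT B, the library that stood apart in GC content (0.28, adjusted p 0.0923), or without any one of the normoxia siControl libraries (adjusted p from 0.0558 to 0.121). SMCR8, on the opposite strand, overlaps SHMT1 and held 16732 counts in all, against 9957 for SHMT1, and the strand setting of the counting is not given in the sources used here.

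SHMT2 (ENSG00000182199.6; chromosome 12, 57229327 to 57234935, plus strand) has the highest GC content of the members, 57.0%. It stood at 44.5, 52.0 and 44.2 CPM in normoxia siControl A, B and C, at 39.7, 50.7 and 38.2 CPM in hypoxia siControl, at 51.6, 82.6 and 50.7 CPM in normoxia siARNT and at 34.9, 44.2 and 54.5 CPM in hypoxia siARNT. All neighbouring groups overlapped, and normoxia siARNT B was the highest library. The hypoxia change was -0.13 (log2, SE 0.205, edgeR adjusted p = 0.695) in siControl and -0.47 (log2, SE 0.205, edgeR adjusted p = 0.218) in siARNT. After a correction of each library for GC content SHMT2 was called lower in hypoxia in both arms, by -0.21 (log2, adjusted p 0.0184) in siControl and by -0.30 (log2, adjusted p 0.0041) in siARNT. That correction raised the calls over all genes, from 4299 to 7266 in siControl and from 696 to 3660 in siARNT. Without normoxia siARNT B the change in siARNT was -0.20 (log2, adjusted p 0.55).

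The folate enzymes MTHFD1, MTHFD2 and MTHFD1L all fell in hypoxia in siControl. MTHFD1 (ENSG00000100714.11; chromosome 14, 64388031 to 64463457, plus strand) carries several enzyme activities in the cytosol. It stood at 154, 156 and 159 CPM in normoxia siControl A, B and C and at 104, 102 and 110.0 CPM in hypoxia siControl. With siARNT it was at 153, 161 and 149 CPM in normoxia and at 128, 129 and 128 CPM in hypoxia. The normoxia groups overlapped each other, and hypoxia siARNT lay between them and hypoxia siControl without overlap.

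In hypoxia MTHFD1 fell by 32.7% in siControl (log2 fold change -0.57, SE 0.051, edgeR adjusted p = 1.35e-05) and fell by 16.7% in siARNT (-0.26, SE 0.05, edgeR adjusted p = 0.0198). Of the 7 members tested for it, MTHFD1 was the 1 whose hypoxia changes in the siRNA arms differed in the test itself: 0.31 (log2, SE 0.071, edgeR adjusted p = 0.0323). With siARNT it rose in hypoxia by 22.3% (0.29, SE 0.051, edgeR adjusted p = 0.00112), and in normoxia the value was -0.02 (log2, SE 0.05, edgeR adjusted p = 0.803).
The call in siARNT cells was lost without any one of normoxia siControl A or C, normoxia siARNT A or B, or hypoxia siARNT A or B (adjusted p from 0.0515 to 0.0988). The difference between arms was lost without any one of the normoxia siControl libraries, normoxia siARNT A or C, hypoxia siControl A or B, or hypoxia siARNT A or B (adjusted p from 0.058 to 0.109). With the shared well of normoxia and hypoxia libraries, taken from their letters, as a block, both calls were lost (adjusted p 0.0677 in siARNT and 0.0841 for the difference). Without the low-count filter both were lost too (0.0677 and 0.273), as was the call in siARNT with only the 6 siARNT libraries (0.19).

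MTHFD1L (ENSG00000120254.11; chromosome 6, 150865549 to 151101887, plus strand), which releases formate in mitochondria, followed the same order. It stood at 52.3, 55.5 and 56.2 CPM in normoxia siControl A, B and C, at 36.8, 34.8 and 38.8 CPM in hypoxia siControl, at 57.6, 61.2 and 56.0 CPM in normoxia siARNT and at 49.8, 49.0 and 45.2 CPM in hypoxia siARNT. Each hypoxia group lay below both normoxia groups. In hypoxia MTHFD1L fell by 32.7% in siControl (log2 fold change -0.57, SE 0.065, edgeR adjusted p = 8.51e-05) and fell by 17.6% in siARNT (-0.28, SE 0.065, edgeR adjusted p = 0.0378), and it rose with siARNT in hypoxia by 30.5% (0.38, SE 0.065, edgeR adjusted p = 0.000929). The call in siARNT cells was lost on leaving out any single library other than hypoxia siControl B or C (adjusted p from 0.0644 to 0.105), and with the well as a block (adjusted p 0.0834). The difference between arms was 0.29 (log2, SE 0.092, edgeR adjusted p = 0.0967).

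MTHFD2 (ENSG00000065911.7; chromosome 2, 74198562 to 74217565, plus strand), the mitochondrial dehydrogenase upstream of MTHFD1L, stood at 167, 150.0 and 152 CPM in normoxia siControl A, B and C and at 124, 116 and 116 CPM in hypoxia siControl. In siARNT cells it was at 155, 136 and 158 CPM in normoxia and at 141, 137 and 122 CPM in hypoxia, and these groups overlapped. MTHFD2 fell by 24.0% in hypoxia in siControl (log2 fold change -0.40, SE 0.077, edgeR adjusted p = 0.00272). Its change in hypoxia in siARNT, -0.17 (log2, SE 0.077, edgeR adjusted p = 0.231), and its difference with siARNT in hypoxia, 0.17 (log2, SE 0.077, edgeR adjusted p = 0.134), did not pass. Both passed after the correction for GC content, at -0.19 (adjusted p 0.0048) and 0.17 (adjusted p 0.00343). The second also passed without hypoxia siARNT C (0.23, adjusted p 0.0489) and with scaling by total counts (0.24, adjusted p 0.0177). With the GC correction, calls over all genes rose from 696 to 3660 for hypoxia in siARNT and from 4948 to 7841 for siARNT in hypoxia.

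ALDH1L2 (ENSG00000136010.9; chromosome 12, 105019784 to 105084577, minus strand) was measured on few reads, 10 to 41 per library. It stood at 0.551, 0.459 and 0.631 CPM in normoxia siControl A, B and C, at 0.351, 0.258 and 0.196 CPM in normoxia siARNT, at 0.619, 0.451 and 0.365 CPM in hypoxia siControl and at 0.397, 0.539 and 0.292 CPM in hypoxia siARNT. The 2 normoxia groups did not overlap, while both hypoxia groups overlapped with normoxia siControl. With siARNT in normoxia it fell by 49.4% (log2 fold change -0.98, SE 0.289, edgeR adjusted p = 0.0341), the direction opposite to PSPH and SHMT1. That call was lost without normoxia siControl A or C or without normoxia siARNT B or C (adjusted p from 0.0762 to 0.118). NOPCHAP1, on the opposite strand, overlaps ALDH1L2 and held 10360 counts in all.

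**Figure D3:**
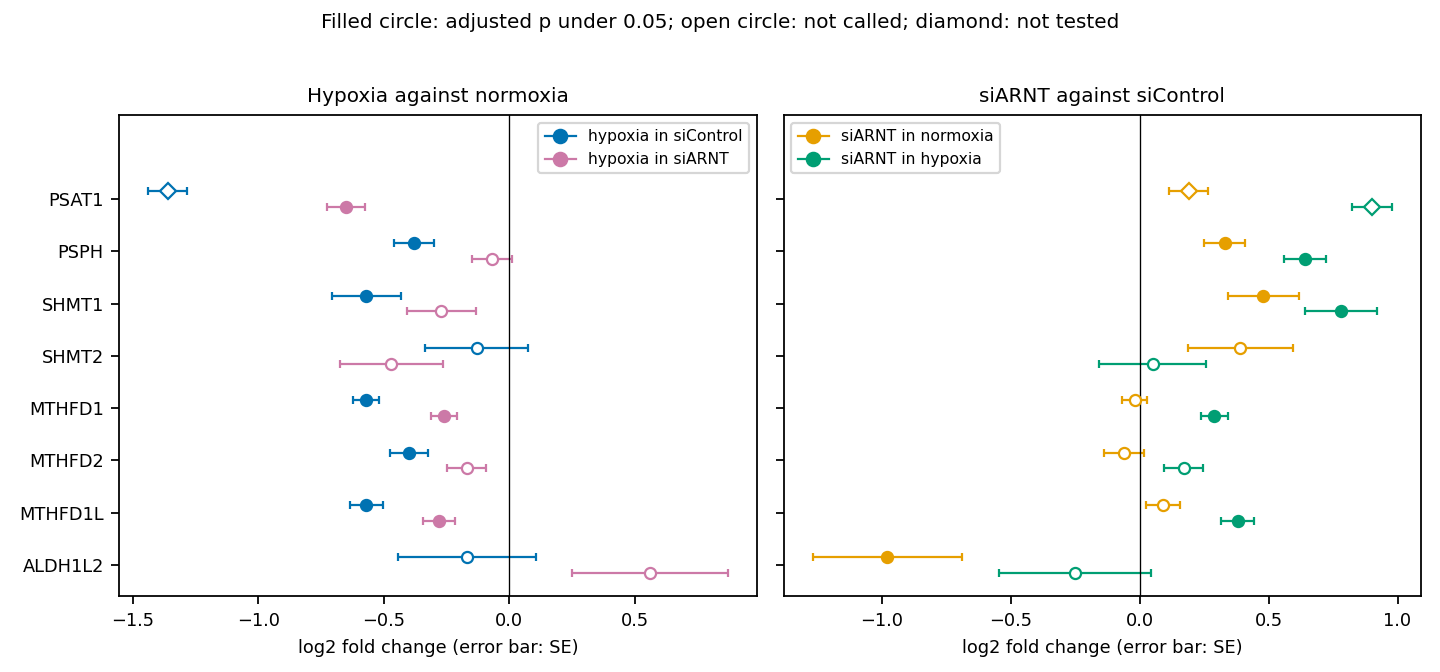
Log2 fold changes of 8 genes with SE as error bars, hypoxia against normoxia on the left and siARNT against siControl on the right; filled circles passed an adjusted p of 0.05, open circles did not, and diamonds were not tested. The PSAT1 circle for hypoxia in siARNT is a description only, and its fill is not to be read as a test result, since PSAT1 was chosen on its level. All 8 values for hypoxia in siControl lie below 0, and 7 of the 8 values for siARNT in hypoxia lie above 0.

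Over the 7 tested members other than PSAT1, 5 fell and none rose in hypoxia in siControl, where 14.9% of all genes tested were called lower and 25.3% were called in either direction. The median log2 fold change of these 7 was -0.40, against 0.02 for all genes. Of the 7, 5 did not overlap between these groups, against 46.8% of all genes in either direction. In hypoxia in siARNT, 2 of 7 fell (1.89% of all genes were called lower and 4.09% in either direction), with a median of -0.26 against -0.04 for all genes, and 2 of 7 did not overlap (22.2% of all genes). With siARNT in hypoxia 4 of 7 rose (14.4% of all genes were called higher and 29.1% in either direction), with a median of 0.29 against 0.02, and 4 of 7 did not overlap (40.3% of all genes). With siARNT in normoxia 2 rose (9.42% of all genes were called higher) and 1 fell (10.8% were called lower and 20.2% in either direction), with a median of 0.09 against 0.01, and 3 of 7 did not overlap (46.5% of all genes). In the test of the difference between arms 1 of 7 was called (2.49% of all genes were called in that direction and 4.69% in either). With the well as a block 0 of 7 were called for hypoxia in siARNT and 0 of 7 for the difference between arms. Of all 16999 genes, 136 and 373 were called there. The hypoxia comparison in siControl and the siARNT comparison in hypoxia share the hypoxia siControl libraries, so their opposite signs are not independent of each other.

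Genes that use the products of these enzymes were counted from lists of the pathway. Of 11 purine synthesis genes, all tested, 8 fell and none rose in hypoxia in siControl (median -0.44), where 14.9% of all genes were called lower and 25.3% in either direction. With siARNT in hypoxia 7 rose and none fell (median 0.31), where 14.4% of all genes were called higher and 29.1% in either direction. In siARNT cells none of the 11 was called in hypoxia (median -0.20), where 4.09% of all genes were called. Of the 11 values there, 10 lay below 0. GART, which adds a formyl group and carries several steps of the pathway, averaged 231 ± 6.56 CPM in normoxia siControl, 156 ± 8.1 CPM in hypoxia siControl, 193 ± 10.1 CPM in normoxia siARNT and 193 ± 13.8 CPM in hypoxia siARNT (SD, n = 3). PRPS1, which makes the ribose donor, fell by 34.2% in hypoxia in siControl (adjusted p 3.81e-05), and PFAS, the next step after the first use of formyl folate, fell by 35.6% (adjusted p 0.0226). With siARNT in hypoxia PRPS1 rose by 48.1% (adjusted p 3.75e-05), PFAS by 45.8% (adjusted p 0.0409) and PPAT, the first committed step, by 27.8% (adjusted p 0.0213). The PFAS call for hypoxia in siControl was lost without normoxia siControl B or C or hypoxia siControl A or B (adjusted p from 0.0589 to 0.0809). Its call with siARNT was lost without any siControl library or hypoxia siARNT B or C (adjusted p from 0.0507 to 0.153). That of PPAT was lost without hypoxia siControl A or B or hypoxia siARNT A or B (adjusted p from 0.0688 to 0.0934).

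Of 13 tested folate enzymes and carriers, 5 fell and none rose in hypoxia in siControl (median -0.29). Of all genes, 14.9% were called lower there and 25.3% in either direction. TYMS, which makes thymidylate, averaged 84.9 ± 2.94 CPM in normoxia siControl, 56.4 ± 2.95 CPM in hypoxia siControl, 89.1 ± 2.35 CPM in normoxia siARNT and 86.6 ± 2.08 CPM in hypoxia siARNT (SD, n = 3). SLC25A32, the mitochondrial folate carrier, fell by 32.0% (adjusted p 0.000788). With siARNT in hypoxia 3 of the 13 rose, among them TYMS by 53.7% (adjusted p 8.57e-06) and SLC25A32 by 19.5% (adjusted p 0.0481), and 1 fell. The share of the 13 called was near the 29.1% of all genes called there. The SLC25A32 call was lost without any library other than normoxia siARNT B or C or hypoxia siARNT C (adjusted p from 0.0601 to 0.159). Of 8 tested genes of the methionine cycle and transsulfuration, 4 fell in hypoxia in siControl, where 14.9% of all genes were called lower. Among these MTRR fell by 20.7%, AHCYL1 fell by 17.6% and MTR fell by 16.0%. The MTR call was lost without any library other than normoxia siARNT B, hypoxia siControl C or hypoxia siARNT C (adjusted p from 0.0537 to 0.194). In hypoxia, 2 of the 8 rose with siARNT and 2 fell (median 0.02), where 29.1% of all genes were called in either direction. MTR, the methionine synthase, rose by 50.6% (adjusted p 0.000231) and MTRR, which reactivates it, rose by 12.5% (adjusted p 0.0396). CTH, of cysteine synthesis, fell by 26.4% (adjusted p 0.00536) and MAT2B, a regulatory subunit of the enzyme that makes S-adenosylmethionine, fell by 21.0% (adjusted p 0.00469). The MTRR call was lost without any library other than normoxia siARNT B or C or hypoxia siARNT C (adjusted p from 0.0602 to 0.159).

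Of 7 tested genes of serine and glycine handling, 3 fell and 1 rose in hypoxia in siControl (median -0.31), where 25.3% of all genes were called. GCSH, a protein of the glycine cleavage system, fell by 33.4% (adjusted p 0.00152), SRR, the serine racemase, fell by 29.2% (adjusted p 0.0406) and PHYKPL rose by 46.5% (adjusted p 0.000965, and 0.0826 after the correction for GC content). The SRR call was lost without any siControl library or normoxia siARNT A (adjusted p from 0.0537 to 0.151). Under hypoxia, 1 of the 7 rose with siARNT and 1 fell, a share near the 29.1% of all genes called there. GCSH rose by 26.9% (adjusted p 0.0272) and PHYKPL fell by 36.3% (adjusted p 0.000231). The GCSH call was lost without hypoxia siControl A or B or hypoxia siARNT A or B (adjusted p from 0.0702 to 0.104). Of 9 tested carriers 1 fell and 1 rose in hypoxia in siControl, a share near the 25.3% of all genes called there. SFXN2, of the sideroflexin family of mitochondrial carriers, fell by 46.0% (adjusted p 8.84e-05), and SLC38A2, an amino acid transporter of the cell surface, rose by 46.7% (adjusted p 0.00934). With siARNT in hypoxia 2 of the 9 carriers rose and 1 fell, where 29.1% of all genes were called. SLC38A2 fell by 30.3% (adjusted p 0.0113), and SFXN2 rose by 27.2% (adjusted p 0.0237), a call lost without hypoxia siControl B or C or hypoxia siARNT B or C (adjusted p from 0.0697 to 0.0946). SLC1A4, a carrier of serine and alanine, rose by 86.1% (adjusted p 0.00198) from 0.826 ± 0.0851 to 1.55 ± 0.0306 CPM (SD, n = 3).

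ATF4 and its targets outside the serine pathway changed in both directions. Of 28 tested, ATF4 included, 10 fell and 3 rose in hypoxia in siControl (median -0.12), and 5 fell and none rose in hypoxia in siARNT (median -0.22). Over all genes 25.3% were called in either direction in siControl and 4.09% in siARNT. ASNS, the asparagine synthetase, fell by 42.7% in siControl (adjusted p 2.65e-05) and fell by 31.7% in siARNT (adjusted p 0.00453). Those that rose in siControl were DDIT4, an inhibitor of mTORC1 signalling, by 173.4%, VEGFA, the angiogenic growth factor, by 125.4%, and ALDH18A1, of proline synthesis, by 49.6%, and DDIT4 and VEGFA are also known HIF targets. The transcript of ATF4 itself averaged 195 ± 4.3 CPM in normoxia siControl and 207 ± 9.92 CPM in hypoxia siControl (SD, n = 3), a log2 difference of 0.08 that was not called (adjusted p 0.384), and with siARNT in hypoxia it fell to 175 ± 9.14 CPM (log2 fold change -0.24, adjusted p 0.0119).

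**Figure D4:**
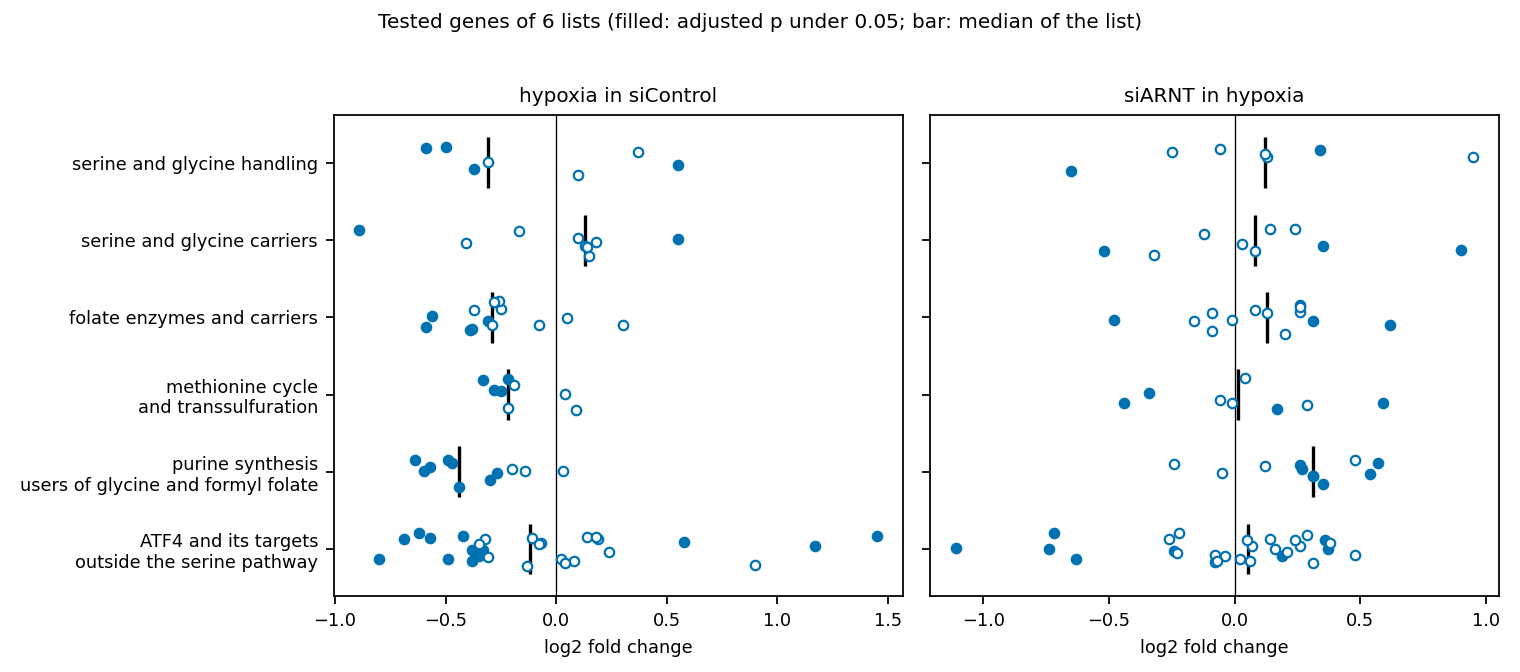
Log2 fold change of each tested gene of 6 lists for hypoxia in siControl (left) and siARNT in hypoxia (right); filled points passed an adjusted p of 0.05, bars are list medians, and points are spread vertically only for legibility. The purine synthesis genes have medians of -0.44 and 0.31, and ATF4 and its targets lie on both sides of 0.

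The 5 genes outside these lists whose log2 CPM over the 12 libraries was most like that of PSAT1, among 9652 genes averaging at least 5 CPM, were SNRPD1 (Pearson r 0.994), MRPS15 (0.992), LBHD1 (0.99), PSPC1 (0.99) and POP1 (0.99). These are described only, since the 12 points fall into 4 groups and share libraries. Their changes in hypoxia in siControl, from -0.42 for LBHD1 to -0.74 for POP1 (log2), were smaller in size than the -1.36 of PSAT1.

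Splicing was read from 50 deposited events in 7 of the genes, PHGDH and ALDH1L2 having none, and 38 events were tested. Each had at least 10 reads for the 2 forms together in every library. For 2 intron retention events, intron coverage stood in for reads of the retained form. Those 2 were tested with limma and the other 36 with edgeR, and none was called in any of the 5 comparisons. Of 44238 events of all genes, 0.113% were called for hypoxia in siControl, 0.0588% for hypoxia in siARNT and 0.307% for siARNT in normoxia. For siARNT in hypoxia the share was 0.246%, and for the difference between arms 0.0181%. Among the 38 events the counts at an unadjusted p under 0.05 were 3, 2, 0, 2 and 0. With limma the 36 events also gave no call, with 8, 3, 1, 5 and 2 at that unadjusted level. The single event of PSAT1 is a skipped exon of 138 bases (contig 9, 80942967 to 80943104, in the unnamed build of the event files). Its deposited inclusion was 96%, 97% and 97% in normoxia siControl and 97%, 95% and 91% in hypoxia siControl, and it ran from 94% to 96% in the siARNT libraries. The inclusion of this exon was thus at least 91% in every library, those with a low PSAT1 level included.

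In MTHFD2 a 185-base exon (contig 2, 74432832 to 74433016) had a deposited inclusion of 50% to 63% over all 12 libraries, with 50%, 61% and 51% in normoxia siControl and 50%, 59% and 52% in hypoxia siControl. A 117-base exon of SHMT1 (contig 17, 18238873 to 18238989), chosen after its values were seen, had a deposited inclusion of 62%, 71% and 71% in hypoxia siARNT, against 91%, 78% and 91% in hypoxia siControl. These groups did not overlap, but normoxia siControl alone ranged from 72% to 97%, and the difference did not pass (log2 odds ratio -1.64, SE 0.71, edgeR adjusted p = 0.644). It rests on 8 exclusion reads in hypoxia siControl and 40 in hypoxia siARNT.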

How the data were processed

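The deposited gene files hold counts of reads per gene ID, not normalized, and the submitters' processing notes list Trimmomatic, STAR 2.4.2a and GRCh38.p10 without their roles. The annotation and strand setting of the counting are not given in the sources used here. Deposited event files give counts of junction reads, the coverage of introns as a signal, and inclusion as a fraction, per the file headers. Summary lines naming no gene held 22.71 to 25.2% of reads and were left out. Symbols were found for 51996 of 57820 IDs, which hold 99.35% of counts.

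Gene counts of all 12 libraries were fitted with edgeR 4.0.16 (R 4.3.3; TMM scaling, filterByExpr, robust quasi-likelihood, 1 mean per group, adjustment over all 16999 genes within a comparison), and a call is an adjusted p under 0.05. Each SE was obtained as the fold change on the log2 scale over the square root of F. CPM use TMM scaling. Splicing counts were fitted with edgeR with library effects, and intron retention with limma 3.58.1 on the logit of the fraction. Scripts were tested on simulated data. Alternatives were DESeq2 1.42.0, other scalings, no filter, 6 libraries only, blocks, a GC correction (97.3% of genes had a value) and leaving out each library. Limits from a count of 0 cover counting error only.

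The members and gene lists were chosen with earlier results of these data known. The rule for named genes took all 9 members, up to 3 called genes per list with the largest change in hypoxia in siControl and in siARNT in hypoxia, the 5 genes most like PSAT1, and ARNT. Processed copies of the members held at most 0.41% of the reads of their parent genes. Some genes of the lists are counted but not reported by name here.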

Additional observations from a re-analysis of the deposited data

Results flagged for a closer look

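Genes are given here because their change in hypoxia differed between siARNT and siControl cells in the test of that difference (edgeR's quasi-likelihood test, adjusted over all genes). Among the 9 genes this was MTHFD1, with a difference of 0.31 (log2, adjusted p 0.0323): -0.57 in siControl and -0.26 in siARNT. The call was lost in 9 of 12 analyses leaving out 1 library (adjusted p from 0.058 to 0.109), and with the well as a block (0.0841). It held in 9 of 20 alternatives, and its highest adjusted p was 0.273, without the low-count filter.

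Among the pathway lists, TYMS differed by 0.55 (adjusted p 0.00286), GART by 0.57 (adjusted p 0.00693) and PRPS1 by 0.47 (adjusted p 0.0118). These 3 genes fell in hypoxia in siControl and were not called in hypoxia in siARNT, where their values ran from -0.13 for PRPS1 to 0.0 for GART. Another 4 genes rose in hypoxia in siControl and were not called in siARNT. DDIT4 differed by -1.35 (adjusted p 0.00381), VEGFA by -0.77 (adjusted p 0.0433), ALDH18A1 by -0.63 (adjusted p 0.00491) and PHYKPL by -0.57 (adjusted p 0.0292). Their values for hypoxia in siARNT were 0.10 for DDIT4, 0.40 for VEGFA, -0.05 for ALDH18A1 and -0.02 for PHYKPL. VEGFA was also higher with siARNT in normoxia (0.55, adjusted p 0.0161), a call lost without normoxia siControl A or C. With siARNT in hypoxia VEGFA was not called (-0.22, adjusted p 0.26).

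The calls of TYMS, GART, DDIT4 and ALDH18A1 held on leaving out each library in turn. PRPS1 lost its call without normoxia siControl C (adjusted p 0.0511). PHYKPL lost it without normoxia siControl A or C, hypoxia siControl A or B, or hypoxia siARNT A or B (adjusted p from 0.0689 to 0.0958), and with the well as a block or with the GC correction. Over its alternatives the PHYKPL difference ran from -0.63 to -0.17, with an adjusted p of up to 0.64. VEGFA lost it without any library other than hypoxia siControl C or hypoxia siARNT C (adjusted p from 0.0595 to 0.121).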

How the results depend on the processing

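Of 816 values of the 8 tested members under alternatives, 737 kept their direction and their side of the threshold, 46 lost a call, 15 gained one and 18 moved otherwise. PSAT1, which is described only, is included in these values. For hypoxia in siControl and siARNT in hypoxia the counts called of 7 members other than PSAT1 stayed at 5 to 6 and at 4 to 5. For hypoxia in siARNT the count was 2, and became 1 with DESeq2 size factors, 0 without the low-count filter, 0 with only 6 libraries, 0 with a replicate block by well, 4 with the GC correction and 4 with the letter block and GC correction. Calls over all 16999 genes there also rose, from 696 to 3660 with the GC correction and to 3905 with the letter block and GC correction. For the difference between arms the count was 1, and became 2 with total count scaling, 0 without the filter, 0 with the block by well, 3 with the GC correction and 3 with the letter block and GC correction. Over all genes these calls rose from 797 to 1495 with total count scaling, to 3139 with the GC correction and to 3366 with both block and correction. Leaving out each library gave 0 to 2 calls for hypoxia in siARNT, 0 to 3 for siARNT in normoxia and 0 to 1 for the difference between arms. The causes were not tested.

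Deviations of same-letter libraries correlated from -0.4 to 0.5, and those of different letters from -0.61 to 0.6. Same-letter pairs without hypoxia siARNT ran from 0.06 to 0.5, and those with it from -0.4 to 0.49. These values do not settle whether the letters pair the libraries. With the letter as a replicate block the counts were 5, 2, 3, 4 and 1 in the 5 comparisons, as without it. The PSAT1 difference in hypoxia in siARNT was -0.65 (log2) with that block. Over all genes the block raised the calls in every comparison, for siARNT in normoxia from 3431 to 4732. Over all genes, calls for hypoxia in siARNT ran from 22 with only 6 libraries to 3905 with the letter block and GC correction, against 696, and those for the difference between arms from 272 without normoxia siControl C to 3366, against 797. They ran from 2873 to 7541 for hypoxia in siControl, against 4299, from 1571 to 5924 for siARNT in normoxia, against 3431, and from 3537 to 8066 for siARNT in hypoxia, against 4948. Total count scaling changed the split of higher and lower calls from 375 and 321 to 634 and 330 for hypoxia in siARNT, from 2452 and 2496 to 3473 and 1973 for siARNT in hypoxia, and from 424 and 373 to 1125 and 370 for the difference between arms. Depth limits PHGDH, ALDH1L2 and the splicing events.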
